A study of Mus musculus with 19 samples.

Results

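The genes described here are 9 genes of hepatic fibrosis and the extracellular matrix. They are the growth factor gene *Tgfb1*, the collagen genes *Col1a1*, *Col1a2*, *Col3a1* and *Col4a1*, the cross-linking enzyme gene *Lox*, the protease gene *Mmp2*, its inhibitor gene *Timp1*, and the smooth muscle actin gene *Acta2*. Every probe of the array that carries one of these symbols was taken, without regard to its values. This gave 14 probes, 5 for *Acta2*, 2 for *Col3a1* and 1 for each of the other 7 genes, out of 46632 probes and 17711 named genes.

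RNA from liver and duodenum of male C57BL/6 mice was hybridized to 19 Illumina Sentrix Mouse-6 arrays. In the *Hfe* experiment, liver came from 3 *Hfe*-/- mice (Hfeko, 10 to 12 weeks of age in the labels) and 2 wild-type mice (13 and 14 weeks), all on a standard diet with 250 ppm iron. Duodenum came from 2 *Hfe*-/- mice (10 and 11 weeks) and 2 wild-type mice (12 and 13 weeks). The study had excluded a further *Hfe*-/- duodenal array because its data diverged strongly from those of the remaining pair. In the diet experiment, 3 mice received 2% carbonyl iron for 6 weeks and 2 received a control diet with 200 ppm iron, all aged 16 to 18 weeks, and both tissues of each group were measured. The methods give about 10 weeks for both genotypes of the *Hfe* experiment; under the label ages, genotype and age cannot be told apart. The knockout was of the whole body, and the mice of the diet experiment carried no altered allele. Each array held a single mouse, but which liver and which duodenum came from the same animal cannot be read from the labels.

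Fibrosis of the liver is the build-up of scar matrix around and between the hepatocytes. Its main source is the hepatic stellate cell, a vitamin A storing cell beside the sinusoid. When activated, chiefly by transforming growth factor beta, it becomes a contractile myofibroblast that makes alpha smooth muscle actin, fibrillar collagen and the inhibitors that protect that collagen from proteases. Long-standing iron overload is a known setting for liver fibrosis in people, while mouse models of iron overload are known for little scarring.

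Levels are given as log2 of the quantile-normalized bead signal, so that a difference of 1 is a doubling. Within a tissue the arrays share a scale, and levels of different probes are not compared. A probe counts as detected on an array when its detection p-value against the negative control beads was under 0.05. Between 12846 and 14369 probes were detected on a liver array, and between 13936 and 16965 on a duodenal array. The lowest detected signal lay at log2 6.54 to 6.59 in liver and 6.67 to 6.77 in duodenum, so levels near these values carry little information. The single *Hfe* probe was close to background and did not separate the genotypes in liver. It read 6.73, 6.68 and 6.50 in *Hfe*-/- mice, the last not detected, against 6.77 and 6.60 in wild-type mice, and whether it lies in the deleted part is not known. On a pair of arrays other signals stood apart. In liver it was iron-diet replicate 1. In duodenum it was wild-type replicate 2, with a summed signal of 5 pancreatic acinar genes of 2122 against 98898 to 135392 on the other 8 duodenal arrays.

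Most of the fibrosis genes were at or below the detection limit in liver. Of the 14 probes, 4 were detected on all 10 liver arrays, those of *Col4a1*, *Timp1* and *Mmp2* and 1 of *Acta2*. Another 4 were detected on some liver arrays and 6 on none. In duodenum 7 probes were detected on all 9 arrays, 3 on some and 4 on none. Every statement on the genes that fell below the limit is therefore that a difference was not detectable at these signals.

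**Figure D1:**
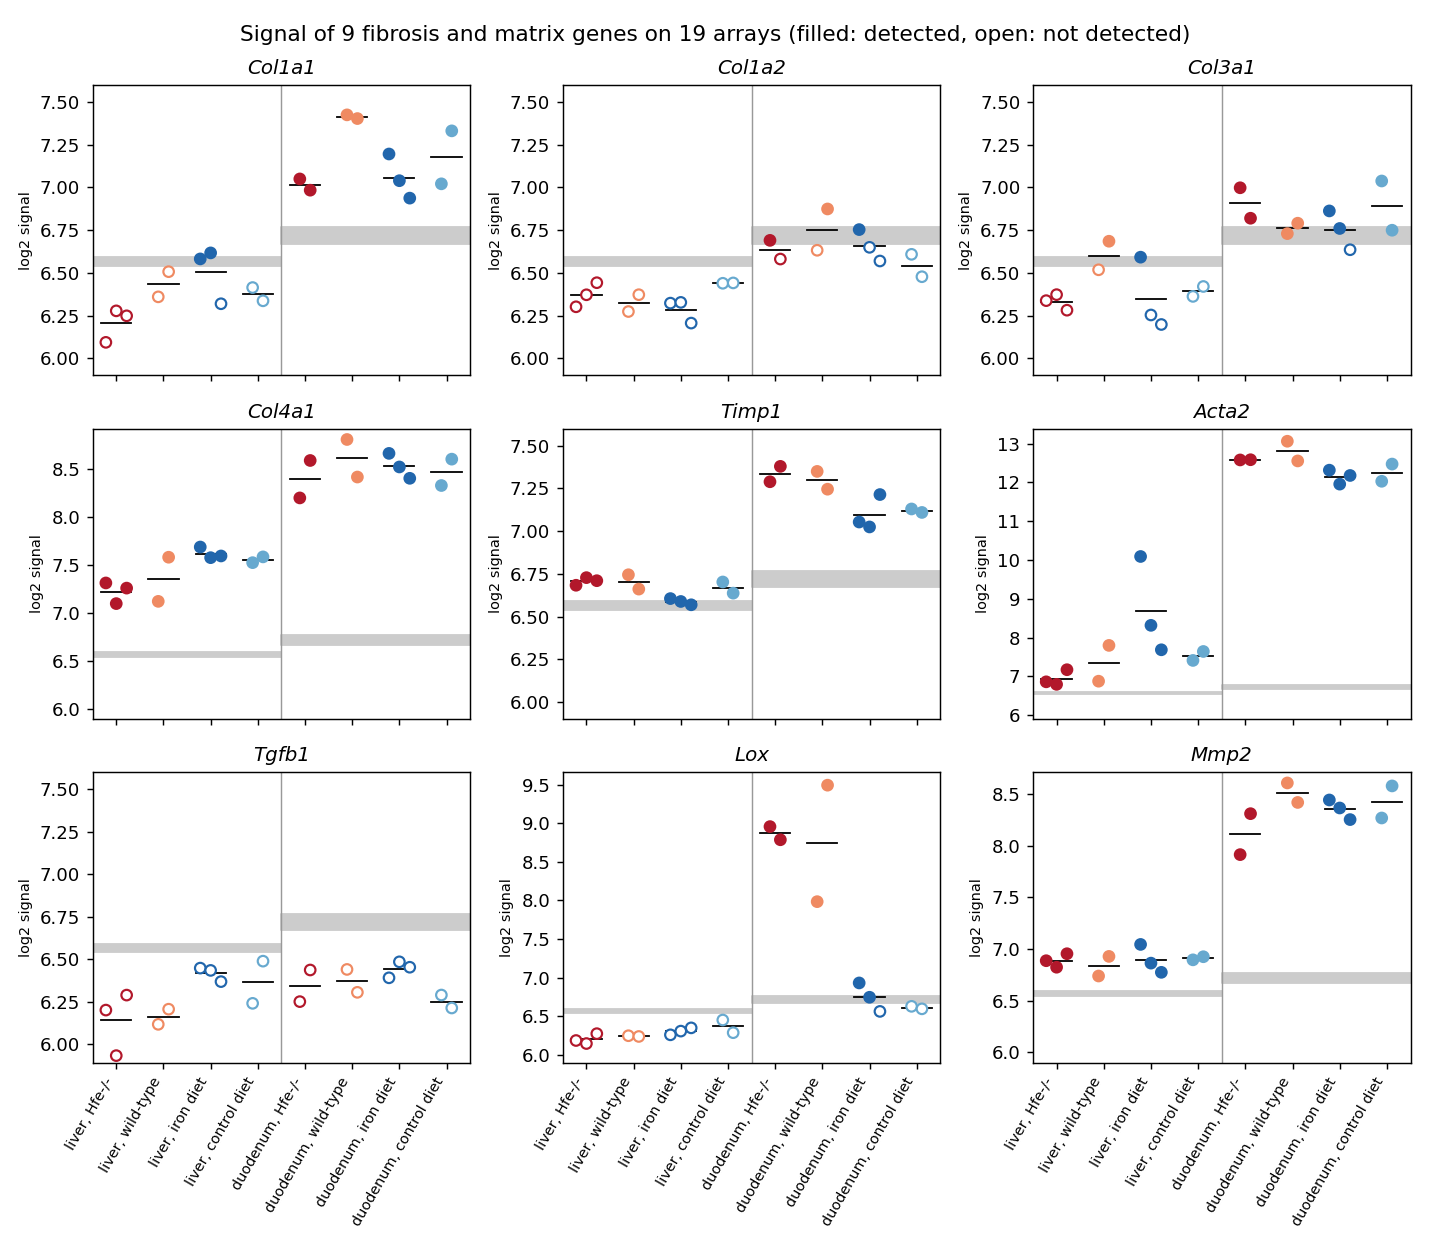
Level of the leading probe of each gene on every array, as log2 quantile-normalized signal (vertical axis), by group (horizontal axis), with open symbols for arrays on which the probe was not detected, black lines for group means and grey bands for the range of the lowest detected signal in each tissue, which were normalized separately. *Acta2* on iron-diet liver replicate 1 (10.09) lies above all other livers, and *Lox* in duodenum separates the *Hfe* experiment (7.98 to 9.49) from the diet experiment (6.56 to 6.93).

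*Tgfb1*, at chr7:25687002-25705077 (GRCm38.p6), encodes the cytokine that drives the fibrogenic programme. Its only probe was not detected on any of the 19 arrays, with readings of 5.93 to 6.49 in liver and 6.21 to 6.48 in duodenum. Nothing can be said of *Tgfb1* from these data, in either experiment.

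The fibrillar collagens, which form the bulk of scar matrix, were barely measurable in liver. *Col1a1* (chr11:94936224-94953042) encodes the alpha 1 chain of type I collagen. Its readings were 6.09, 6.28 and 6.25 in *Hfe*-/- livers and 6.36 and 6.51 in wild-type livers, none of them detected. In iron-diet livers they were 6.58, 6.62 and 6.32, the first and second detected, and 6.41 and 6.34 in control-diet livers, neither detected. The gene was thus above the limit in only 2 of 10 livers, both of them iron-diet, and the remaining iron-diet liver lay below both control-diet livers.

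*Col1a2* (chr6:4505618-4541543), the partner chain of type I collagen, was undetected in all 10 livers, at 6.21 to 6.44. *Col3a1* (chr1:45311538-45349706) encodes type III collagen, laid down early in scar tissue. Its brighter probe was detected in 1 wild-type liver (6.69) and 1 iron-diet liver (6.59) and read 6.20 to 6.52 in the other 8. The second *Col3a1* probe was undetected on all 19 arrays. The livers with a detected fibrillar collagen did not form a group of the design.

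*Lox* encodes lysyl oxidase, which cross-links collagen and elastin fibrils and so stiffens the matrix. It was undetected in all 10 livers (6.15 to 6.45).

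*Col4a1* (chr8:11198423-11312889) encodes the main chain of type IV collagen, a sheet-forming collagen of basement membranes. Its levels were 7.31, 7.10 and 7.26 in *Hfe*-/- livers and 7.12 and 7.58 in wild-type livers. In iron-diet livers they were 7.69, 7.58 and 7.59, against 7.52 and 7.58 in control-diet livers. The *Hfe* groups overlapped, and the iron-diet and control-diet groups met at 7.58.

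*Mmp2* (chr8:92827290-92853421) encodes gelatinase A, a protease that cuts type IV collagen and denatured collagen. It read 6.89, 6.82 and 6.95 in *Hfe*-/- livers and 6.74 and 6.93 in wild-type livers. It read 7.04, 6.86 and 6.77 in iron-diet livers and 6.90 and 6.93 in control-diet livers. Both pairs of groups overlapped.

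*Timp1* (chrX:20870166-20874737) encodes an inhibitor of the matrix metalloproteinases. It was close to the limit, at 6.68, 6.73 and 6.71 in *Hfe*-/- livers and 6.74 and 6.66 in wild-type livers. Iron-diet livers read 6.61, 6.59 and 6.57 and control-diet livers 6.70 and 6.64. All 3 iron-diet livers were therefore below both control-diet livers, at readings close to the lowest detected signal of the arrays.

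*Acta2* (chr19:34240336-34255585) encodes alpha smooth muscle actin, the marker of activated stellate cells, which vascular and visceral smooth muscle also makes. The probe detected on all livers read 6.86, 6.79 and 7.17 in *Hfe*-/- mice and 6.88 and 7.80 in wild-type mice. It read 10.09, 8.32 and 7.69 in iron-diet mice and 7.41 and 7.64 in control-diet mice. The *Hfe* groups overlapped, and all 3 iron-diet livers lay above both control-diet livers, the lowest of them by less than the control-diet livers differed from each other.

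The other *Acta2* probes gave little in liver. A pair of them (ILMN_2710354 and ILMN_2744825) was detected only on iron-diet replicate 1, at 6.74 and 6.72. The remaining pair (ILMN_1236619 and ILMN_1237242) was undetected on all 19 arrays. The liver with the highest leading *Acta2* probe was thus also the only liver in which other *Acta2* probes were detected.

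The *Acta2* promoter is shown because among the members this gene carried the largest difference in liver and the largest difference between the tissues. Smooth muscle genes are known to be driven by serum response factor at CArG boxes, searched here as the letters CC, then 6 letters of which at least 5 are A or T, then GG, a pattern that reads the same on both strands. In the RefSeq promoter (GRCm38.p6, minus strand), the 250 bases before the start held 2 such boxes, in capitals, which do not overlap. The start used by that promoter is base 34255373, inside the gene span given above, which reaches farther upstream to 34255585.
*Acta2* box 84 to 75 bases before the start, chr19:34255438-34255467: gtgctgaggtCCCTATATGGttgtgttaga
*Acta2* box 34 to 25 bases before the start, chr19:34255388-34255417: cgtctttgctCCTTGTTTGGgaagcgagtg
Of 32851 mouse promoters of the same length, 8.59% held at least 1 such box and 0.67% at least 2. Among the 6 of the 9 genes with a promoter in the table, *Acta2* was the only one with 2 boxes and *Col1a2* had 1. A match is a description of letters and not evidence of binding in these tissues.

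The question of the first liver comparison was whether loss of *Hfe* moves these genes. No member probe passed the test in *Hfe*-/- against wild-type livers. The test was run with limma on 14160 probes, those detected on 2 or more of these 5 arrays. By it 0 of the 4 testable member probes had an adjusted p under 0.05, and none reached an unadjusted p under 0.05. Over all tested probes 0.0282% passed, so that few genes of any kind were called between these groups. Groups were apart for 0 of the 4, and for 24.8% of all probes. The median log2 difference was -0.06 over the member probes and -0.01 over all probes.

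*Acta2* had the largest difference, -0.39 (SE 0.24, adjusted p 0.7104 by limma, 95% interval -0.96 to 0.17). It rested on wild-type replicate 2, with 0.07 when that liver was left out and -0.86 when wild-type replicate 1 was left out. *Col4a1* differed by -0.13 (SE 0.14, adjusted p 0.866 by limma). *Mmp2* differed by 0.05 (SE 0.09) and *Timp1* by 0.0043 (SE 0.078). None of these differences was larger than the spread between mice.

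The second liver comparison asked the same of dietary iron overload. Of the member probes, 5 met the filter, *Col1a1* only because 2 iron-diet livers detected it. Again 0 of these 5 passed with limma, and 0 had an unadjusted p under 0.05, while 2.12% of the 14919 probes tested passed. The groups did not overlap for 2 of the 5, *Acta2* upward and *Timp1* downward, and for 33.6% of all probes.

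*Acta2* had a mean 2.25-fold higher in iron-diet than in control-diet livers (log2 difference 1.17, SE 0.60, 95% interval -0.22 to 2.56). The adjusted p by limma was 0.3946. Iron-diet replicate 1 set the size, since without it the difference was 0.47 (adjusted p 0.2742 by limma). *Col1a1* had no measured level in control-diet livers, so its difference is not given. *Timp1* differed by -0.08 (SE 0.07, adjusted p 0.6253 by limma). *Col4a1* differed by 0.06 (SE 0.07) and *Mmp2* by -0.02 (SE 0.09), both smaller than their SE.

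**Figure D2:**
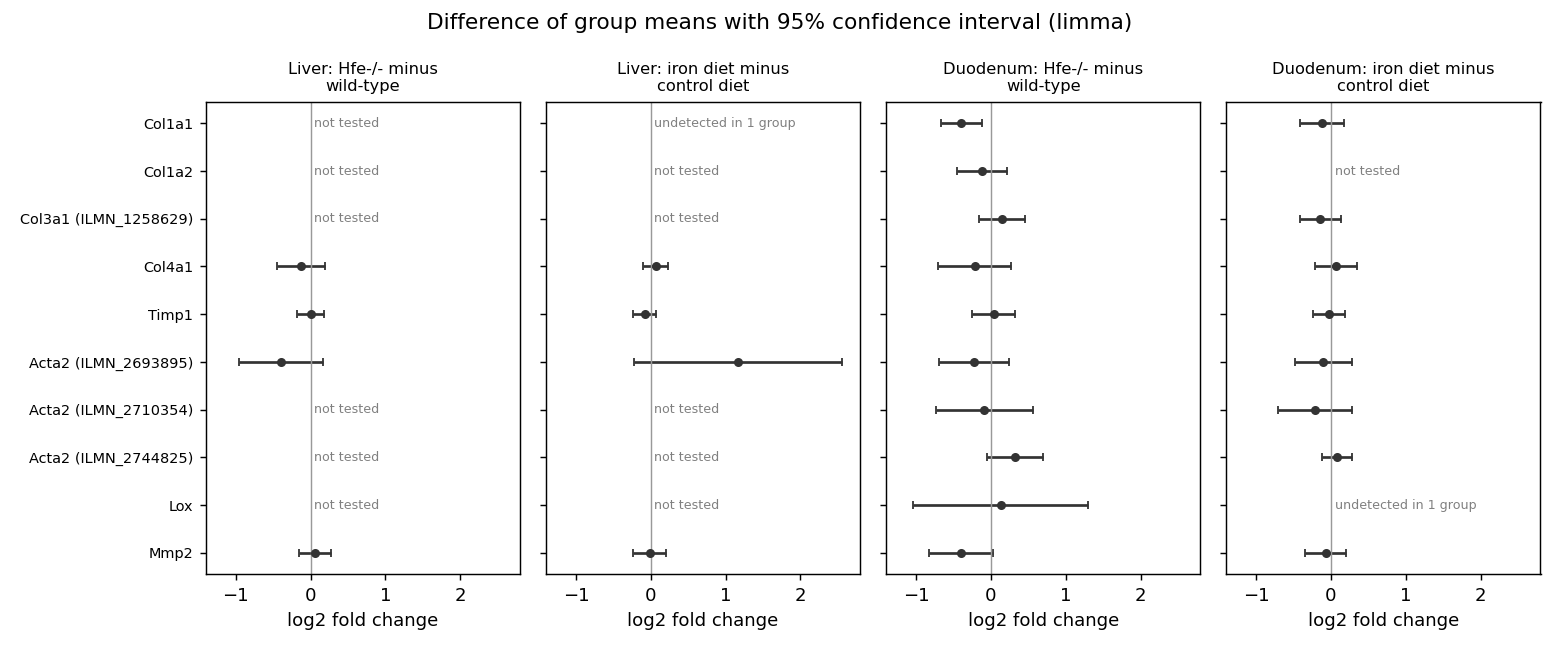
Log2 difference of the tested member probes in the 4 main comparisons (horizontal axis, points with 95% limma intervals), with no point where 1 of the groups was undetected on every array. In liver the *Acta2* interval under the iron diet (-0.22 to 2.56) is the widest, and no probe in any panel passed the test after adjustment over all probes.

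The study selected genes by spread and fold rather than by a p-value, keeping the most variable 0.6% of probes in a comparison by SD (280 probes) and requiring at least a 1.4-fold change. Under that rule 1 member probe was taken in 1 comparison, the leading *Acta2* probe in iron-diet livers, whose SD of 1.09 ranked 22 of 46632. The rule took 0.525% of all probes there, and 0.39% in *Hfe*-/- livers, 0.506% in *Hfe*-/- duodenum and 0.459% in iron-diet duodenum. *Acta2* in *Hfe*-/- livers (rank 207) and *Lox* in *Hfe*-/- duodenum (rank 268) were within the top 280 by SD but under 1.4-fold. No collagen, protease, inhibitor or growth factor probe met the rule.

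*Acta2* on iron-diet replicate 1 was singled out after its values were seen. Its level exceeded the next-highest liver by 1.77 on the log2 scale, the largest such excess among 10614 probes of named genes detected on at least 5 livers. The next genes in that order were *Tff2* (1.51), a trefoil peptide of mucous epithelium, *Egr1* (1.39), an immediate early transcription factor, *Prom1* (1.30), *Sftpd* (1.25) and *S100a6* (1.07). Of the genes that smooth muscle makes, *Actg2*, the enteric actin, read 8.10 there against 6.27 to 6.73 in the other livers. *Myh11*, the smooth muscle myosin heavy chain, read 7.20 against 6.40 to 6.77. *Tpm2*, a tropomyosin also found in myofibroblasts, read 8.13 against 6.81 to 7.48. Other smooth muscle genes were not high there. *Smtn*, encoding smoothelin, read 6.67 against 6.56 to 6.86, and *Synpo2* was undetected at 6.37.

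The 8 genes of the smooth muscle list had a summed linear signal of 901.7 there against 645.13 to 715.49 in the other 9 livers, with 0 to 3 of the 8 detected on any liver. *Tagln*, *Des*, *Cnn1* and *Lmod1*, which mark differentiated smooth muscle, were undetected in all 10 livers. Even in duodenum only 5 to 6 of the 8 list genes were detected on an array. An undetected probe in liver is therefore not read as a lack of smooth muscle. The same array read 7.27 for *Krt7*, a bile duct keratin (6.52 to 6.82 in the other livers). It read 7.92 for the pancreatic *Ctrb1*, undetected in the other 9 livers at 6.36 to 6.56. The pancreatic acinar list as a whole did not follow *Ctrb1*, with a sum of 3924 there against 3548 to 4717 in the other livers. The bile duct sum was 565 there against 424 to 513, and the enterocyte sum 964 against 721 to 884. The part of other cell types in the *Acta2* level of this liver was not tested. In bulk tissue, more cells of a type and more RNA per cell cannot be told apart.

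**Figure D3:**
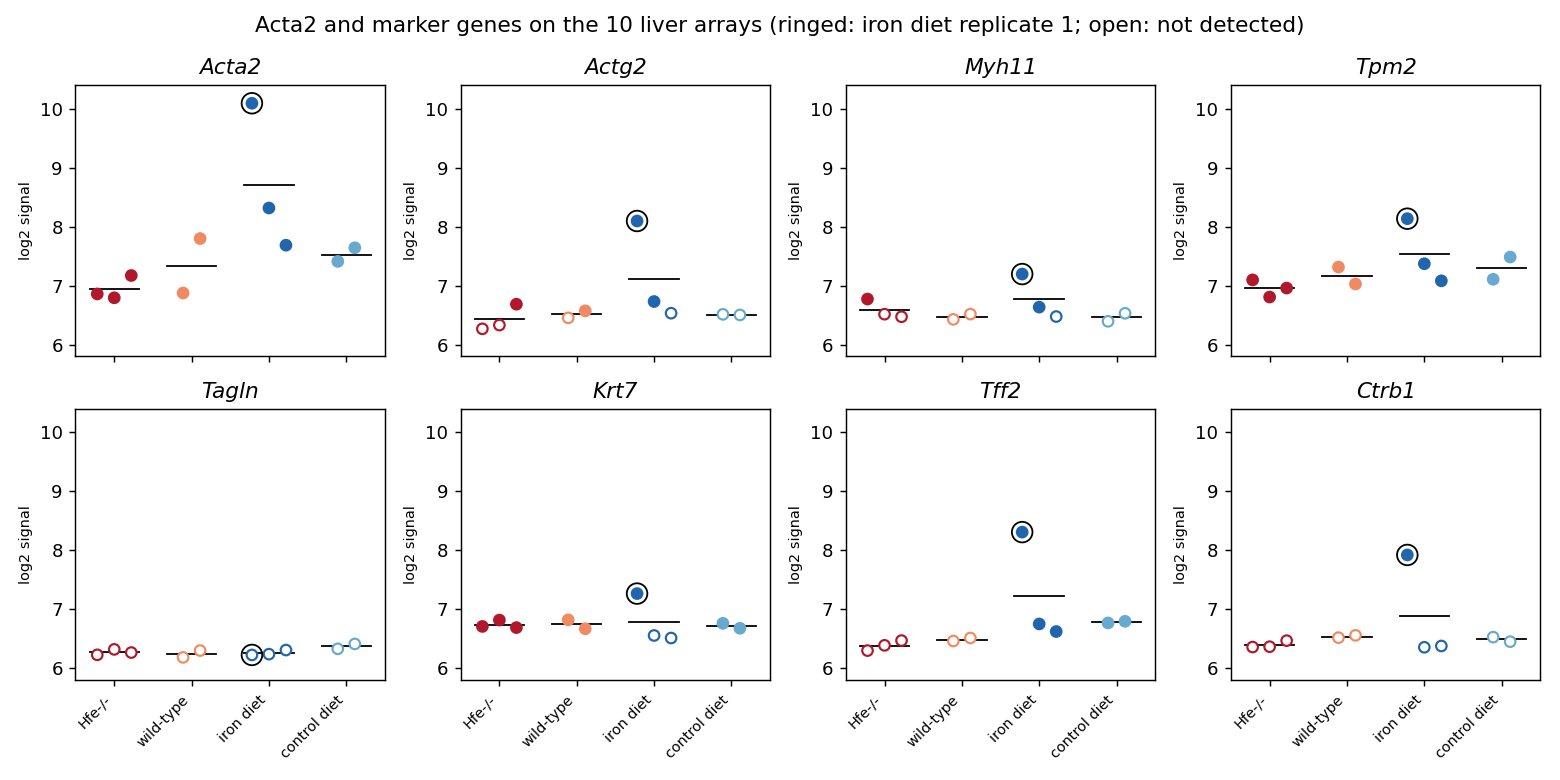
Log2 signal of *Acta2* and of genes of smooth muscle and of other cell types (panels) on each of the 10 livers, by group (horizontal axis), with open symbols where undetected, black lines for group means and a ring around iron-diet replicate 1. Iron-diet replicate 1 is the highest liver for *Acta2* (10.09), *Actg2* (8.10), *Myh11* (7.20) and *Tff2* (8.31), while *Tagln* stays undetected in every liver.

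Leukocyte genes were read beside the matrix genes in liver. The summed signal of the T cell, B cell and neutrophil genes was 845.84 to 1012.8 in iron-diet livers and 664.38 to 677.31 in control-diet livers, with 3 to 5 and 1 to 2 of 8 detected. Of 5 tested genes of that list 1 was called with limma, higher under the iron diet, where 2.12% of all probes were called. The differences were positive for 4 and negative for 1, with a median of 0.17 against -0.01 over all probes. With only 1 to 2 of the 8 detected on a control-diet liver, some of the 5 entered only through iron-diet livers. The direction of those was fixed by the filter, so the signs and median are not read as a result. The Kupffer cell and macrophage sum overlapped, at 2294 to 2839 in iron-diet and 2278 to 2405 in control-diet livers. Of 7 tested genes of that list 7 had a positive difference, with a median of 0.14, and 0 were called. The part of these cells in the diet differences of the matrix genes was not tested.

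Whether the responses to the gene and to the diet differ was tested directly. In a fit with all 10 livers, 0 of 4 member probes differed in their response to *Hfe* loss and to the diet, against 1.02% of all probes. For *Acta2* the difference was -1.57 (SE 0.76, adjusted p 0.4091 by limma), and -0.86 without iron-diet replicate 1. The diet effect in liver minus that in duodenum was 1.27 for *Acta2* (SE 0.72, adjusted p 0.5301 by limma), and 0.57 without that array. Here too 0 of 5 member probes passed, with 0.887% of all probes. None of these tests shows that the responses were alike, since the interval of the *Acta2* effect is wide.

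How the members ran together across livers depended on the grouping. As a description over 10 livers of 4 groups, *Acta2* had a Pearson r of 0.75 with *Col4a1*, 0.87 without iron-diet replicate 1 and 0.53 with the group means removed. With *Mmp2* its r was 0.64, 0.24 without that array and 0.94 with group means removed. The values with group means removed still include that array, which read 10.09 for *Acta2* against a group mean of 8.70. They are therefore not read as coupling within groups. *Timp1* had r = -0.84 with *Col4a1* (-0.76 with group means removed) and r = -0.67 with *Acta2* (-0.02 with group means removed). *Mmp2* had r = 0.50 with *Col4a1* (0.73 with group means removed) and -0.22 with *Timp1* (-0.24). *Timp1* was near the limit in these livers.

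Among 8064 candidate genes the probe most like *Acta2* over the 10 livers was *Tff2* (r = 0.94, and 0.75 without iron-diet replicate 1). It was followed by *Kmt5b* (0.90), *Fst* (0.89), which encodes the activin antagonist follistatin, *Gsta1* (0.89) and *Pip4p1* (0.88). Without iron-diet replicate 1 the r was 0.91 for *Kmt5b*, 0.78 for *Fst*, 0.77 for *Gsta1* and 0.86 for *Pip4p1*. All 5 were highest on iron-diet replicate 1, and none is a matrix gene. No such order is given for *Col1a1*, undetected on 8 of the 10 livers.

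In duodenum the members were better measured. The leading *Acta2* probe read 12.58 and 12.58 in *Hfe*-/- mice and 13.06 and 12.55 in wild-type mice. Iron-diet mice read 12.31, 11.95 and 12.18 and control-diet mice 12.03 and 12.47. The gut wall holds a muscle coat, and 5 to 6 of the 8 smooth muscle genes were detected on each duodenal array, with a sum of 3623 to 7219 on the scale of that tissue. The other detectable *Acta2* probes read 7.62 to 8.56 and 7.79 to 8.49 over the 9 arrays.

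*Col1a1* was detected on all duodenal arrays. It read 7.05 and 6.98 in *Hfe*-/- mice and 7.42 and 7.40 in wild-type mice, against 7.20, 7.04 and 6.94 under the iron diet and 7.02 and 7.33 under the control diet. The *Hfe* groups did not overlap and the diet groups did. *Col3a1* read 6.64 to 7.04 over the 9 arrays, and *Col1a2* was detected on 3 of 9 arrays.

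*Mmp2* read 7.91 and 8.31 in *Hfe*-/- and 8.61 and 8.42 in wild-type duodenum, and 8.25 to 8.58 in the diet experiment. *Col4a1* read 8.20 and 8.58 in *Hfe*-/- and 8.80 and 8.41 in wild-type duodenum, and 8.32 to 8.66 in the diet experiment. *Timp1* read 7.29 and 7.38 in *Hfe*-/- and 7.35 and 7.25 in wild-type duodenum, and 7.02 to 7.21 in the diet experiment. Only for *Mmp2* among these 3 were the *Hfe* groups apart.

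In *Hfe*-/- against wild-type duodenum, 0 of 10 member probes passed with limma, where 0.00602% of 16599 probes did. Groups did not overlap for 4 of the 10, against 35.2% of all probes. *Col1a1* was the only one with an unadjusted p under 0.05, with a log2 difference of -0.40 (SE 0.11, 95% interval -0.67 to -0.12, adjusted p 0.6463 by limma). *Mmp2* differed by -0.40 (SE 0.17, adjusted p 0.73 by limma). The *Acta2* probes differed by -0.23, 0.33 and -0.09, in both directions for 1 gene. Without wild-type replicate 2 the differences were -0.40 for *Col1a1*, -0.50 for *Mmp2*, -0.48 for the leading *Acta2* probe and 0.89 for *Lox*, and 0 member probes passed. Under the iron diet 0 of 9 member probes passed, with 0.421% of all 16373 probes, and *Lox* entered only through 2 iron-diet arrays. The differences of the other 8 ran from -0.21 to 0.08. Groups were apart for 0 of the 9 and for 27.1% of all probes.

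*Lox* was the member that varied most among duodenal arrays. It read 8.96 and 8.79 in *Hfe*-/- mice and 7.98 and 9.49 in wild-type mice. It read 6.93, 6.75 and 6.56 in iron-diet mice, the last undetected, and 6.63 and 6.60 in control-diet mice, both undetected. All 4 mice of the *Hfe* experiment were thus above all 5 of the diet experiment, whatever the genotype or diet. Within the experiments *Lox* differed by 0.13 (SE 0.47, adjusted p 0.9988 by limma) between the genotypes.

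The control groups of the 2 experiments were then compared in duodenum, a comparison added after these values were seen. *Lox* was at least 4.04-fold lower in control-diet than in wild-type mice, taking the lowest detected signal of each array where the probe was undetected. No test is given for *Lox*, since the comparison was chosen for its pattern and 1 of the groups was undetected. In this comparison 0 of 9 member probes and 4.96% of all 16123 probes passed with limma, and groups did not overlap for 5 of 9 and for 51.7%. These groups differ in age, diet and experiment, which cannot be told apart, and wild-type replicate 2 with its low acinar signal has the highest *Lox* level. Wild-type replicate 1 (7.98) was by itself above all 5 mice of the diet experiment.

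The same comparison in liver, control-diet minus wild-type, gave 0 of 4 member probes and 3.36% of all probes. The member differences there ran from -0.03 to 0.20.

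The last comparison of the members was between the tissues. Untreated livers (wild-type and control-diet, 4) were set against untreated duodena (4) after normalizing all 19 arrays together. Of 9 testable member probes, 8 were lower in liver and 0 higher with limma, where 27.3% of all 18348 probes were lower. Of these 8, 4 were undetected in all 4 livers, *Col1a1*, *Lox* and the other 2 *Acta2* probes. They entered the test only through duodenum, so their direction was fixed by the filter. Detected in liver too were the other 4, the probes of *Col4a1*, *Timp1* and *Mmp2* and the leading *Acta2* probe. Groups did not overlap for 7 of 9, 3 of them undetected in liver, against 46.1% of all probes. The arrays were treated as independent, although some share a mouse. Without the duodenum of wild-type replicate 2, 7 member probes passed, and *Lox* was too rarely detected to be tested.

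*Acta2* had a mean of 7.55 in liver and 12.57 in duodenum, 32.6-fold lower in liver (log2 difference -5.03, SE 0.22, adjusted p 7.089e-07 by limma). *Mmp2* was lower by a log2 difference of -1.37 (SE 0.09, adjusted p 8.025e-06 by limma). *Col4a1* differed by -0.86 (SE 0.13) and *Timp1* by -0.28 (SE 0.06), with adjusted p-values of 0.0009623 and 0.004516. *Col1a1*, undetected in these livers, was at least 1.42-fold lower. The other detectable *Acta2* probes, undetected in these livers, were at least 2.53-fold and 2.24-fold lower.

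*Lox* was at least 1.89-fold lower in liver but was detected in only 2 of the 4 duodena, the wild-type pair, and the tissues overlapped. *Col3a1* had a difference of -0.12 (SE 0.08, adjusted p 0.2528 by limma) and did not pass. Among the 4 members measured in both tissues that passed, the smooth muscle actin differed most.

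Other genes of matrix biology were read from 8 lists of 137 genes, of which 124 are on the array. In *Hfe*-/- livers 0 of 71 tested passed with limma, and 6 had an unadjusted p under 0.05, where 8.94% of all probes did. The medians of the lists lay between -0.08 and 0.08. *Serpinh1*, the collagen chaperone HSP47 of the endoplasmic reticulum, came closest. It read 7.37 to 7.46 in *Hfe*-/- and 8.05 to 8.24 in wild-type livers, a difference of -0.72 (SE 0.09, adjusted p 0.08467 by limma). Without a filter on dim probes its adjusted p was 0.01495. In duodenum it read 8.75 to 9.13 in *Hfe*-/- and 10.06 to 10.21 in wild-type mice, a difference of -1.20 (SE 0.16, adjusted p 0.4841 by limma). Its groups were apart in both tissues, as for 24.8% of all probes in liver and 35.2% in duodenum, and neither difference passed. Under the iron diet in duodenum it differed by -0.49 (SE 0.17, adjusted p 0.3944 by limma).

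*Fn1*, the fibronectin gene, read 9.45 to 9.85 in *Hfe*-/- and 8.75 to 9.34 in wild-type livers (difference 0.59, SE 0.18, adjusted p 0.416 by limma). *Col4a2*, the partner chain of *Col4a1*, differed by 0.52 (adjusted p 0.5944) and the receptor gene *Tgfbr2* by 0.35 (SE 0.10, adjusted p 0.4015). *Ccn2*, a target of transforming growth factor beta, differed by -0.37 with wild-type livers at 7.07 and 8.49. *Fn1* and *Tgfbr2* had unadjusted p-values of 0.01195 and 0.01015 by limma. Their groups did not overlap, as for 24.8% of all probes. None of these 4 genes passed after adjustment over all probes.

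The other leading genes of the lists gave small differences in *Hfe*-/- livers, all with adjusted p-values of 0.5405 or more by limma. *Ecm1*, an extracellular glycoprotein, differed by 0.21, the perlecan gene *Hspg2* by -0.08, and the collagen genes *Col14a1*, *Col5a1* and *Col6a2* by -0.05, -0.18 and -0.05. The nerve growth factor receptor gene *Ngfr*, a stellate cell marker, differed by -0.25 and *Tpm2* by -0.22. *Mmp13* (-0.14), *Mmp9* (0.13) and the fibrillin gene *Fbn2* (0.11) were detected on some of the arrays only. *Pcolce2*, an enhancer of procollagen cleavage, was detected in all 3 *Hfe*-/- livers (6.61 to 6.87) and in neither wild-type liver (6.52 and 6.55).

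In iron-diet livers 2 of 71 list genes fell and 0 rose with limma, 2.82% against the 2.12% of all probes. An unadjusted p under 0.05 was reached by 14 of the 71 and by 16.1% of all probes. *Reln*, encoding reelin, an extracellular glycoprotein that stellate cells make in liver, read 8.80, 8.83 and 8.78 in iron-diet and 9.58 and 9.38 in control-diet livers. It fell by 0.68 on the log2 scale (SE 0.08, adjusted p 0.009676). Without iron-diet replicate 2 its adjusted p was 0.06326 and without control-diet replicate 1 it was 0.07949.

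*P4ha1*, a prolyl 4-hydroxylase subunit needed for stable collagen helices, read 7.06, 7.29 and 7.28 in iron-diet and 7.83 and 7.69 in control-diet livers. It fell by 0.55 (SE 0.09, adjusted p 0.03581 by limma). The adjusted p was 0.06853 with median scaling and 0.06777 to 0.2499 without iron-diet replicate 2 or 3 or either control-diet replicate. Its level in the *Hfe* experiment was 7.05 to 7.27, that of the iron-diet livers. Control-diet livers exceeded wild-type livers in *P4ha1* by 0.63 (adjusted p 0.0289 by limma). In duodenum *P4ha1* read 6.83 to 7.16 under the iron diet and 7.64 to 7.71 under the control diet (difference -0.70, SE 0.11, adjusted p 0.07816 by limma). The iron-diet mice were below the control-diet mice in both tissues, and the difference passed the test in liver.

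Members of other lists did not pass under the iron diet in liver. *Col18a1*, a basement membrane collagen, read 12.29 to 12.39 against 11.95 to 12.01 (difference 0.35, adjusted p 0.06093 by limma). *Fn1* differed by 0.39 (adjusted p 0.1069) and *Ccn2* by -0.52 (adjusted p 0.1394). The protease gene *Mmp14* differed by 0.32 (adjusted p 0.2857) and the inhibitor gene *Timp3* by 0.22 (adjusted p 0.2497). On the negative side were *Ecm1* (-0.34, adjusted p 0.1988), *Smad3*, a transducer of transforming growth factor beta (-0.32, adjusted p 0.3067), and *Colec11*, a collectin (-0.30, adjusted p 0.2614). *Serpinh1* differed by -0.25, *Col5a1* by -0.15, the basement membrane gene *Nid1* by -0.14, *Col16a1* by -0.11 and *Emilin1* by 0.19, with adjusted p-values of 0.2958 to 0.6722 by limma. *Fbln1*, encoding fibulin 1, was detected in all 3 iron-diet livers (6.60 to 6.78) and in neither control-diet liver (6.46 and 6.55). The TGF-beta list had 7 positive and 9 negative differences among 16 tested genes, a median of -0.05 where that of all probes was -0.01. The 13 tested stellate and myofibroblast genes had 5 positive and 8 negative differences.

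In duodenum 0 of 91 list genes passed for *Hfe* and 0 of 89 for the diet with limma, with 4 and 13 at an unadjusted p under 0.05, where 6.9% and 9.89% of all probes had such a p. The differences for *Hfe* were negative for 66 of the 91, with a median of -0.10 against -0.02 over all probes. The difference between the 2 effects in liver and the difference of the diet effect between tissues gave 0 of 65 and 0 of 67, where 1.02% and 0.887% of all probes passed. An unadjusted p under 0.05 was reached by 4 and 4 of them, and by 13.4% and 12.4% of all probes. Between the untreated tissues 18 of 91 list genes were higher and 44 lower in liver, where 26.6% of all probes were higher and 27.3% lower. Of these list genes, 72 were detected on 2 or more of the untreated livers. The others needed a duodenal array to enter, and for those undetected in liver the filter fixed the direction. Of the 9 tested glycoprotein and proteoglycan genes 4 were higher and 1 lower, while the 4 members measured in both tissues that passed were lower.

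Between the control groups 2 of 72 list genes passed in liver (2.78%) and 3 of 92 in duodenum (3.26%) with limma, below the 3.36% and 4.96% of all probes. In liver *P4ha1* and the proteoglycan gene *Dcn* (difference 0.55, adjusted p 0.03922 by limma) were higher under the control diet, and neither passed when any 1 array was left out. In duodenum, in the comparison added later, *Col18a1* (-1.51, adjusted p 0.01407), *Dcn* (-0.95, adjusted p 0.04235) and the co-receptor gene *Tgfbr3* (-0.66, adjusted p 0.03693) were lower. *Col18a1* read 10.39 and 10.55 in wild-type and 8.91 and 9.01 in control-diet duodenum. None of these 3 passed after median scaling, with adjusted p-values of 0.2097, 0.3444 and 0.2998 by limma. That setting left 1 of all probes called in this comparison, against 799, so the loss was not particular to these genes. When an array was left out, *Tgfbr3* passed in none of the 4 cases (0.06572 to 0.1326). *Dcn* passed only without wild-type replicate 1, and ranged up to 0.1344. *Col18a1* did not pass without control-diet replicate 1 (0.07124). *Dcn* thus stood higher in one tissue and lower in the other between the same groups of mice, a contrast that was not itself tested.

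**Figure D4:**
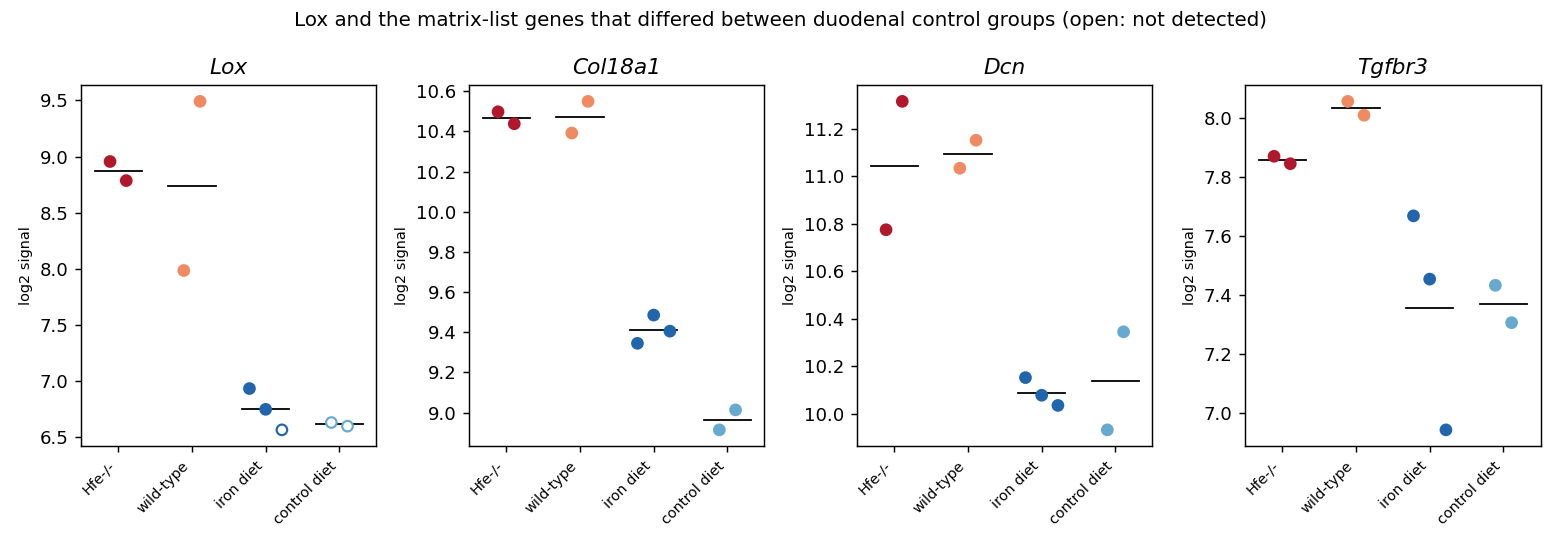
Log2 signal of *Lox*, *Col18a1*, *Dcn* and *Tgfbr3* (panels, each with its own vertical axis) on the 9 duodenal arrays by group (horizontal axis), with open symbols where undetected and black lines for group means. *Lox* sits at 7.98 to 9.49 on the 4 arrays of the *Hfe* experiment and at 6.56 to 6.93 on the 5 of the diet experiment, and *Col18a1* at 10.39 to 10.55 and 8.91 to 9.49.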

How the data were processed

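The labels assign 19 arrays to 8 groups of 2 or 3 mice. The deposited bead intensity of each probe is a mean on the linear scale, to which the authors applied no normalization or background subtraction. It comes with a deposited detection p-value. The deposited matrix holds log2 values that the authors had quantile-normalized with Chipster 1.1.1 within each comparison. In liver these correlated with the signals at 0.987 to 1.00, with replicates 1 and 2 of *Hfe*-/- liver exchanged between the files, and in duodenum at 0.006 to 0.0111. The liver matrix was used as an alternative only and the duodenal matrix not at all.

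The 46643 entries were averaged over 11 duplicated identifiers. Symbols came from the platform annotation (29976 probes with 1 symbol, 10 with several, 16646 with none), and 29921 were found in RefSeq. Intensities were quantile-normalized over the arrays of a tissue, then log2-transformed, without background correction, which narrows the differences of dim probes. Probes that 2 or more arrays of a comparison detected entered limma 3.58.1 in R 4.3.3 (files read with data.table, version 1.17.8) on those groups, with Benjamini-Hochberg adjustment over all tested probes and a threshold of 0.05. Where a group was undetected, folds are lower bounds against the lowest detected signal of each array. The scripts were tested on simulated data. The number of arrays limits the precision.

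The members and lists were chosen with earlier results of these data known. Named are all members, list genes past the threshold, the 2 list genes with the largest differences per list in liver, and the 5 genes most like *Acta2* by Pearson r over livers. The rule also names 5 for *Col1a1*, left out because it was undetected on most livers. Alternatives were the filter, normexp correction, median scaling, joint fits, trended variance, a replicate block and leaving out each array. Array chip was not fitted, since the files name none.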

Additional observations from a re-analysis of the deposited data

How the results depend on the processing

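No member probe passed the threshold in the 4 main comparisons under any alternative run, 363 values in all. The lowest adjusted p by limma was 0.05615, for *Acta2* under the iron diet in liver with a replicate block (log2 difference 1.68), and over all its alternatives that p ran up to 0.7907. The sign differed from the main one in 6 of 239 values without leaving out an array, 5 of them under median scaling, and in 21 of 124 when an array was left out. After normexp correction the study's rule took the leading *Acta2* probe in 2 comparisons, the *Hfe* and the diet comparison in liver, against 1.

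List genes called in *Hfe*-/- liver numbered 1 with no filter and 1 with trended variance, against 0. In iron-diet liver there was 1 under median scaling, against 2, and 0 to 3 when an array was left out. In iron-diet duodenum there was 1 with no filter and 1 with trended variance, against 0. Between the liver control groups there was 1 after normexp correction, against 2, and 0 when any array was left out. Between the tissues the filter for detection on every array left 4 member probes and 33 list genes called. In the added duodenal comparison 1 member, *Lox*, was called after normexp correction, with the replicate block and in 1 fit over all groups. That gene was chosen for this pattern and was undetected in 1 of the groups. The lists there gave 5 with no filter, 10 after normexp, 0 under median scaling, 12 with trended variance, 14 in 1 fit and 0 to 3 when an array was left out, against 3. Over all probes the added duodenal comparison called 1046 with no filter, 1245 after normexp and 1 under median scaling, against 799. With trended variance it called 1395 and in 1 fit 1805, so the list counts moved along with those of all probes. The causes were not tested.

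Counts over all probes moved with the settings, from 317 in iron-diet liver to 81 under median scaling and 482 without a filter (24 to 433 without an array), and from 4 in *Hfe*-/- liver to 0 to 25. In iron-diet duodenum 69 became 0 under median scaling, 109 without a filter and 105 with trended variance. In *Hfe*-/- liver 25 were called without a filter and 11 with trended variance. Between the liver control groups 480 became 709 after normexp correction. Between the tissues 9888 became 5533 with the filter for detection on every array.

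Replicate numbers did not pair the arrays: deviations of same-numbered arrays correlated at -0.46 to 0.15. With the replicate block 0 member probes were called in the 4 main comparisons and 8 between the tissues, and over all probes 9, 429, 0 and 41 were called in *Hfe*-/- liver, iron-diet liver, *Hfe*-/- duodenum and iron-diet duodenum. The crossed pairing in *Hfe*-/- duodenum, added after seeing the data, called 61 probes, 0 members and 1 list gene. The chip as a block and the authors' values for the liver control groups were not run.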

Other observations

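Marker sums of other cell types describe the tissue that carried the members. In liver the endothelial sum was 4003 to 4767 on iron-diet arrays, 3297 to 3508 on control-diet arrays, 3514 to 4089 on *Hfe*-/- arrays and 3643 to 3990 on wild-type arrays, as linear signal over 10 genes. The genes did not move together under the iron diet. Of 8 tested, 4 had a positive and 4 a negative difference, with a median log2 difference of 0.0018. By limma 0 of them were called, where 2.12% of all probes were. In duodenum the T cell, B cell and neutrophil sum was 780 to 848 in the 4 mice of the *Hfe* experiment. In the diet experiment it was 978 to 1008 under the iron diet and 1207 to 1435 under the control diet. The experiments thus stood in the opposite order to *Lox*, and the diet groups were also apart. No test was run on these sums.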
